A study of Mus musculus with 4 samples.

Results

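Expression of 42 genes of the Wnt pathway was examined in MLO-Y4, an osteocyte-like mouse line whose genotype is recorded as wild-type, with and without mechanical loading. The genes were taken by symbol from a table of 55450 genes, each symbol had a single row, and they comprise 5 Wnt ligands, 2 genes of ligand secretion, 12 receptors and co-receptors, 7 cytoplasmic transducers, 4 TCF/LEF factors, 7 genes of secreted inhibition and 5 feedback targets. RNA-seq was done on 2 unloaded and 2 loaded cultures after depletion of ribosomal RNA. Loaded cells grew on silicone membranes coated with type I collagen and were stretched equally in all directions for 12 h (20% strain, frequency 0.5 Hz), starting at 60% confluency. Unloaded cells grew to 60% confluency on standard 6-well plastic and then spent 12 h in the incubator of the same tension system, so that stretch and growth surface cannot be told apart. Nothing in the sample records says whether replicates came from separately grown cell batches, and p-values measure the spread between these libraries only.

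Wnt ligands are secreted glycoproteins that are lipid-modified by Porcupine (*Porcn*) and carried to the cell surface by Wntless (*Wls*). At the receiving cell they bind Frizzled receptors with the co-receptors Lrp5 or Lrp6, which recruits Dishevelled and Axin and keeps beta-catenin (*Ctnnb1*) from being phosphorylated by Gsk3 and degraded. Stabilised beta-catenin then acts with TCF/LEF factors on genes that include the pathway's own inhibitors. In bone this pathway promotes bone formation, and osteocytes in vivo are a main source of its secreted inhibitors sclerostin and Dkk1.

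The libraries held between 28941994 and 32185693 counts. Of the 7 osteocyte markers listed for the check of the cell type, *Pdpn*, *Gja1* and *Phex* were expressed, whereas *Dmp1*, *Sost*, *Mepe* and *Fgf23* had at most 14 counts in any library. *Pdpn* was higher in both loaded libraries (log2 fold change 0.59, edgeR adjusted p = 0.0334, DESeq2 adjusted p = 2.2e-08). The summed level of the 7 markers was 687 and 689 CPM in unloaded and 847 and 769 CPM in loaded libraries. What part this has in the results was not tested. *Sost*, which encodes sclerostin, had 4 counts in loaded replicate 1 and 0 in the other libraries. Among 6 osteoblast markers, *Runx2* and *Col1a1* were expressed and the other 4 had at most 25 counts, with summed levels of 1042 and 1080 CPM in unloaded and 988 and 1029 CPM in loaded libraries. Of 5 blood or osteoclast markers, *Ptprc*, *Adgre1* and *Acp5* had at most 5 counts, while *Csf1r*, the receptor for macrophage colony-stimulating factor, stood at 1577 CPM (the count relative to the TMM-scaled library total) in unloaded and 1559 CPM in loaded cells. *Ctsk*, the osteoclast protease cathepsin K, had 5.13 and 4.85 CPM in unloaded and 7.93 and 7.34 CPM in loaded cells, without overlap (log2 fold change 0.61, edgeR adjusted p = 0.228), and its part in the results was not tested. The summed level of these 5 markers, nearly all of it *Csf1r*, ranged from 1577 to 1587 CPM in unloaded and from 1565 to 1568 CPM in loaded libraries. Of 3 endothelial markers, *Pecam1* and *Cdh5* had between 0 and 61 counts and *Kdr* had 0 counts in the unloaded and 17 and 14 in the loaded libraries, with summed levels of 3.10 and 2.01 CPM in unloaded and 2.69 and 1.37 CPM in loaded libraries.

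The upstream sequences of 3 members are shown because these genes stand for the contrast described below: *Axin2* and *Dkk1*, which are known targets of beta-catenin and had few or no counts, and *Gsk3b*, which had the smallest p-value among the members. Each sequence is the 250 bases before the RefSeq start (GRCm38.p6), 5′ to 3′ on the strand of the gene, with matches to the TCF/LEF core letters CTTTGA or CTTTGT on either strand in capitals. The window of *Axin2* is chr11:108920099-108920348 on the plus strand, that of *Dkk1* is chr19:30549497-30549746 on the minus strand, and that of *Gsk3b* is chr16:38088751-38089000 on the plus strand.
Axin2: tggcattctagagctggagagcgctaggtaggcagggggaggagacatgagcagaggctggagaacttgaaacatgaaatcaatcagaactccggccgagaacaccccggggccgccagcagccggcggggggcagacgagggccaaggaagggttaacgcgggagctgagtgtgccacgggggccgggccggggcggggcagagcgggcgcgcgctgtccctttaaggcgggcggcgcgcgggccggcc
Dkk1: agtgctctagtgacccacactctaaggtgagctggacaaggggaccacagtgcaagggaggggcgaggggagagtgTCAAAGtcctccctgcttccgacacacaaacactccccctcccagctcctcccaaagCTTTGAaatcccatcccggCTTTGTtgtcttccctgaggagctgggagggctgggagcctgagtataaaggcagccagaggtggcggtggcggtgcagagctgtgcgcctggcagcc
Gsk3b: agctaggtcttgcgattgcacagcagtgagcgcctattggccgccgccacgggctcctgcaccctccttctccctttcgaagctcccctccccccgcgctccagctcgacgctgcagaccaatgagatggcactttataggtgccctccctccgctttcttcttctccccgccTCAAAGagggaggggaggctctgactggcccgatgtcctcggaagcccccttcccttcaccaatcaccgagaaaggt
The window of *Dkk1* held 3 matches, that of *Gsk3b* held 1 and that of *Axin2* held 0, which describes these letters only. RefSeq windows were found for 28 of the 42 members, 37 windows in all, of which 27.0% held at least 1 match, against 27.6% of the 32851 windows of all genes in the table. The members' windows were rich in CpG, with a median of 15 CpG dinucleotides against 6 over all windows and a median GC content of 65.2% against 52.4%. Windows of members that passed the filter on low counts had a median of 23 CpG dinucleotides, and windows of members below it had a median of 12.

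No member rose or fell at the threshold of the study, an adjusted p under 0.01. Of the 42 genes, 26 passed the filter on low counts and were tested, 8 had counts below the filter and 8 had 0 counts in every library. With edgeR's quasi-likelihood F test, fitted on all 16269 tested genes, 0 of the 26 members were called, and the smallest adjusted p was 0.190, for *Gsk3b*. Over all tested genes 0.0983% were called, 0.0123% higher and 0.0861% lower. With DESeq2 no member was called either, against 2.91% of 12484 genes, 1.36% higher and 1.55% lower. In these bulk samples fewer cells of a kind and less RNA per cell cannot be told apart. At an unadjusted p under 0.05 in edgeR, 3 members were found (*Gsk3b* on the higher side, *Wnt10b* and *Tcf7* on the lower side), which is 11.5% of the members tested against 14.3% of all genes tested (6.88% higher and 7.46% lower). At the same level DESeq2 found 2 of 34 members higher and 0 lower, with 1944 of 26564 genes in all. With the replicate number as a block, edgeR found 1 member higher and 1 lower, with 1839 of 16269 genes in all. The loaded and unloaded libraries did not overlap for 13 of the 26 members, 6 higher and 7 lower in loaded cells, and for 46.6% of all tested genes. The median log2 fold change of the tested members was -0.04, against -0.01 over all tested genes.

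The replicates also set a limit on what could have been missed. For 21 of the 26 tested members the 95% interval of the log2 fold change lay within 1 unit of 0 on both sides, and for 12 members it lay within 0.5 units. The narrowest interval was that of *Ryk*, from -0.28 to 0.04. The widest was that of *Porcn*, from -0.12 to 2.38, on 13 to 32 counts per library.

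**Figure D1:**
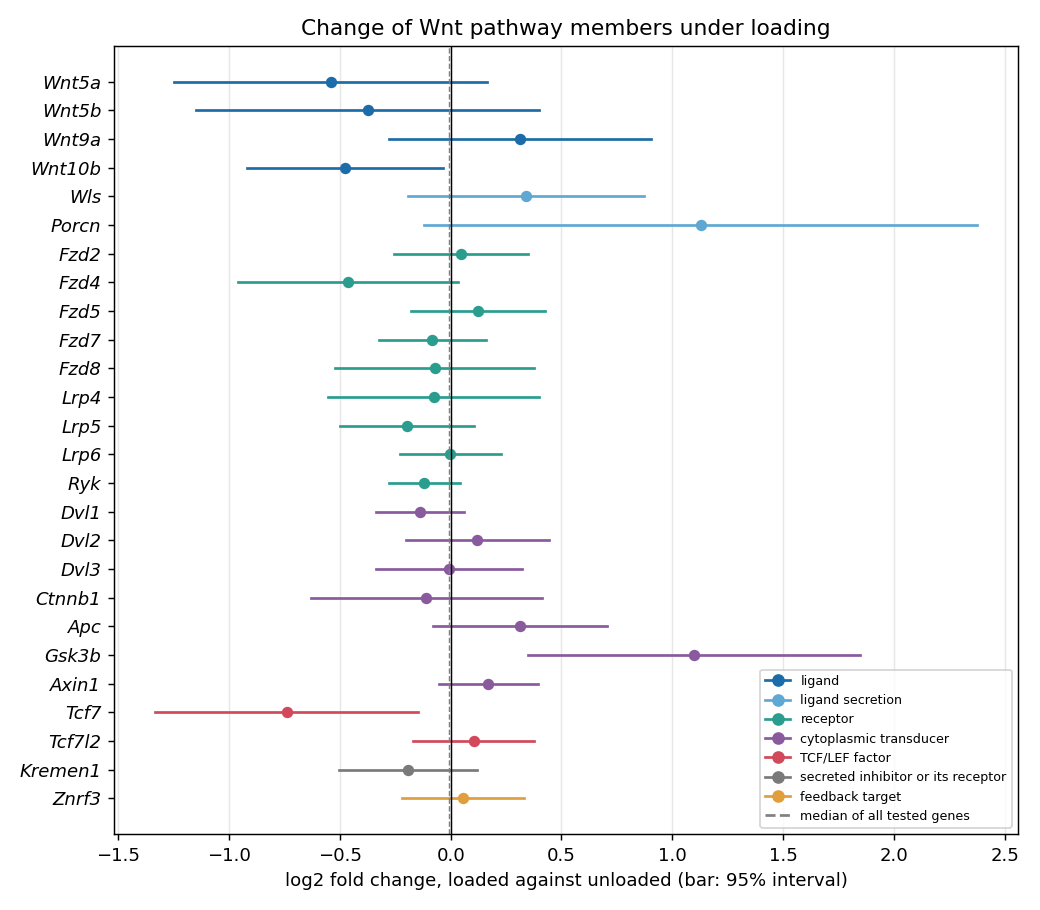
Log2 fold change of the 26 tested members, loaded against unloaded, with bars for the 95% interval of edgeR's quasi-likelihood fit on 2 libraries per group and colours for the role of each gene. Most intervals cross 0; those of *Gsk3b* (0.35 to 1.85), *Tcf7* (-1.33 to -0.15) and *Wnt10b* (-0.92 to -0.04) do not, and none of these genes passed the adjusted threshold.

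Among the ligands, *Wnt10b*, which is known to act through beta-catenin and to favour osteoblast over fat cell formation, was the most abundant per exon length. Its level in TPM (counts divided by exon length and scaled to the same sum in each library) was 14.8 and 18.2 in the unloaded and 12.9 and 10.5 in the loaded libraries. It made up 57.5% and 62.9% of the summed TPM of all 19 Wnt genes in unloaded cells and 54.8% and 55.0% in loaded cells. *Wnt10b* (chromosome 15, 98770712 to 98778150) stood at 16.5 ± 2.74 CPM (SD, n = 2) in unloaded and 11.8 ± 1.59 CPM (SD, n = 2) in loaded cells, and the 4 libraries did not overlap. The log2 fold change was -0.48 (standard error 0.181, edgeR unadjusted p = 0.0382, adjusted p = 0.317). Omitting single libraries gave values from -0.63 to -0.30, the latter without unloaded replicate 2.

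*Wnt9a*, a ligand expressed in skeletal tissue, was next in level per length. It had 3.51 and 4.45 CPM in unloaded and 5.33 and 4.56 CPM in loaded cells. Its share of the summed ligand TPM was 14.2% and 15.5% in the unloaded and 23.0% and 24.0% in the loaded libraries, a difference that could not reach significance in an exact permutation test of 2 against 2 libraries and was not tested. Its own log2 fold change was 0.31 (95% interval -0.28 to 0.90, edgeR adjusted p = 0.621). *Wnt5a* and *Wnt5b*, ligands best known for signalling without beta-catenin, were both lower in every loaded than in every unloaded library. *Wnt5a* had 7.91 and 4.81 CPM in unloaded and 4.61 and 4.12 CPM in loaded cells (log2 fold change -0.54, 95% interval -1.25 to 0.16, edgeR adjusted p = 0.461). It shares 358 exon bases with the antisense gene *Gm2670*, whose reads cannot be told apart from its own where strand was not used in counting. The difference of *Wnt5a* was -0.13 on the log2 scale without unloaded replicate 1. *Wnt5b* had 2.15 ± 0.221 CPM in unloaded and 1.66 ± 0.0249 CPM in loaded cells (log2 fold change -0.37, edgeR adjusted p = 0.651).

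*Wnt4* had 5 counts in unloaded replicate 1 and 0 in the other libraries. Of the 14 Wnt genes outside the members, 8 had 0 counts in all libraries, and *Wnt10a* alone passed the filter, with 9, 20, 17 and 0 counts. In these libraries 3 counts equal 0.0929 to 0.103 CPM. This is the limit that a count of 0 allows where 1 count is 1 read, which need not hold here. It covers counting error only. The 4 tested ligands of the member list had a median log2 fold change of -0.43, 1 positive and 3 negative.

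Both genes of ligand secretion had higher mean values in loaded cells without passing the test. *Porcn* (chromosome X, 8193848 to 8206525) had 13 and 14 counts in the unloaded and 32 and 30 counts in the loaded libraries. In normalised values this was 0.447 and 0.462 CPM against 0.991 and 1.01 CPM, and the groups did not overlap. The log2 fold change was 1.13 (standard error 0.511, edgeR adjusted p = 0.389), the highest among the tested members, and it was 1.11 without unloaded replicate 1 and 1.14 without loaded replicate 1. *Wls* was the more abundant of the pair per length, with 2.55 and 3.09 TPM in unloaded and 4.02 and 3.01 TPM in loaded cells. Its values of 6.47 and 8.04 CPM in unloaded and 10.4 and 7.95 CPM in loaded cells overlapped (log2 fold change 0.34, edgeR adjusted p = 0.545).

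**Figure D2:**
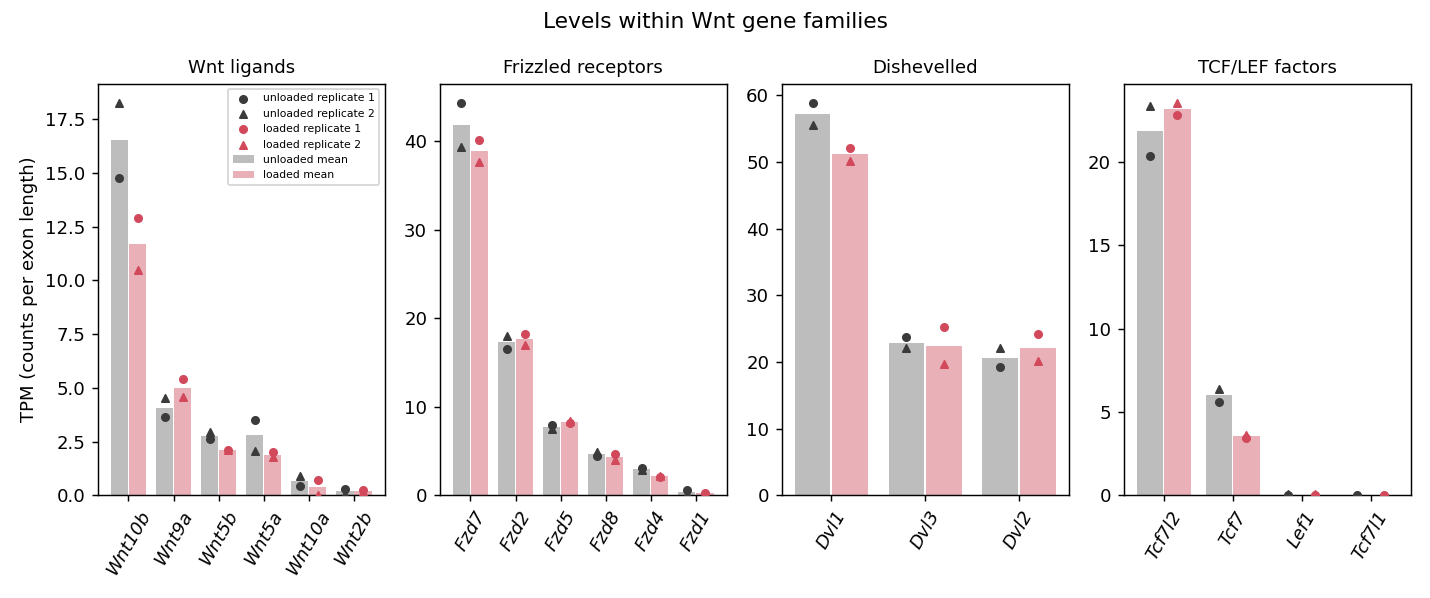
Level per exon length (TPM, linear axis from 0) of up to 6 genes of highest level in 4 Wnt gene families, with bars for the mean of 2 libraries and points for each library. *Wnt10b*, *Fzd7*, *Dvl1* and *Tcf7l2* lead their families in all 4 libraries, and *Lef1* and *Tcf7l1* are near 0.

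Among the receptors, *Ryk*, a receptor-like protein that binds Wnt ligands and can act together with Frizzled, had the highest level, with a mean of 127 TPM in unloaded and 115 TPM in loaded cells. It had 166 and 170 CPM (unloaded) and 151 and 158 CPM (loaded), groups that did not overlap. The log2 fold change was -0.12 (standard error 0.0661, edgeR adjusted p = 0.478). Of the 10 Frizzled genes, *Fzd7* led with 57.4% and 54.2% of the family's TPM in unloaded and 54.4% and 54.3% in loaded libraries. It was followed by *Fzd2*, with 21.5% and 24.8% in unloaded and 24.8% and 24.5% in loaded libraries. The TPM ranges of these 2 genes did not overlap, and *Fzd5* (7.48 to 8.39 TPM) lay below both, whereas *Fzd8* (4.01 to 4.84 TPM) and *Fzd4* (2.11 to 3.08 TPM) followed without overlap. *Fzd6*, like *Fzd3* and *Fzd10* outside the member list, had 0 counts in every library. *Fzd1* was below the filter at 22 and 4 counts in unloaded and 10 and 6 counts in loaded libraries.

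The Frizzled differences between the conditions were small for the abundant members. *Fzd7* (55.5 ± 3.58 and 52.4 ± 1.70 CPM, SD, n = 2 per group) and *Fzd2* (18.6 ± 1.44 and 19.2 ± 0.766 CPM) overlapped between the groups, with log2 fold changes of -0.08 and 0.05. *Fzd5* had 15.9 and 15.3 CPM in unloaded and 16.5 and 17.4 CPM in loaded cells (log2 fold change 0.12, edgeR adjusted p = 0.718), and 1233 of its exon bases lie opposite the unclassified gene *Gm38058*. *Fzd4*, a receptor for norrin as well as for Wnt ligands, showed the largest receptor difference. It had 5.99 and 5.70 CPM in unloaded and 4.18 and 4.29 CPM in loaded cells, with no overlap. Its log2 fold change was -0.46 (standard error 0.204, edgeR adjusted p = 0.375), and omitting single libraries gave values from -0.50 to -0.42. *Fzd8* overlapped between the groups, at 7.57 and 8.57 CPM in unloaded and 8.17 and 7.17 CPM in loaded cells.

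The co-receptor *Lrp6* was more abundant per length than *Lrp5* in every library, at 30.5 to 35.1 TPM against 9.44 to 12.7 TPM, and made up 73.5% to 76.5% of their sum. *Lrp6* had 139 and 123 CPM in unloaded and 124 and 138 CPM in loaded cells. The groups overlapped completely, and the log2 fold change of -0.0012 had a 95% interval of -0.23 to 0.23. *Lrp5*, the co-receptor gene in which human loss and gain of function alter bone mass, had 35.6 and 31.1 CPM in unloaded and 27.1 and 31.1 CPM in loaded cells (log2 fold change -0.20, 95% interval -0.50 to 0.11, edgeR adjusted p = 0.534). *Lrp4*, which presents sclerostin and so limits Wnt signalling in bone, had 6.23 and 7.42 CPM in unloaded and 6.56 and 6.37 CPM in loaded cells. *Ror2*, a receptor for Wnt5a, had 0 counts in all libraries. The 9 tested receptors had a median log2 fold change of -0.08, with 2 positive and 7 negative values, and none of them had an unadjusted p under 0.05.

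**Figure D3:**
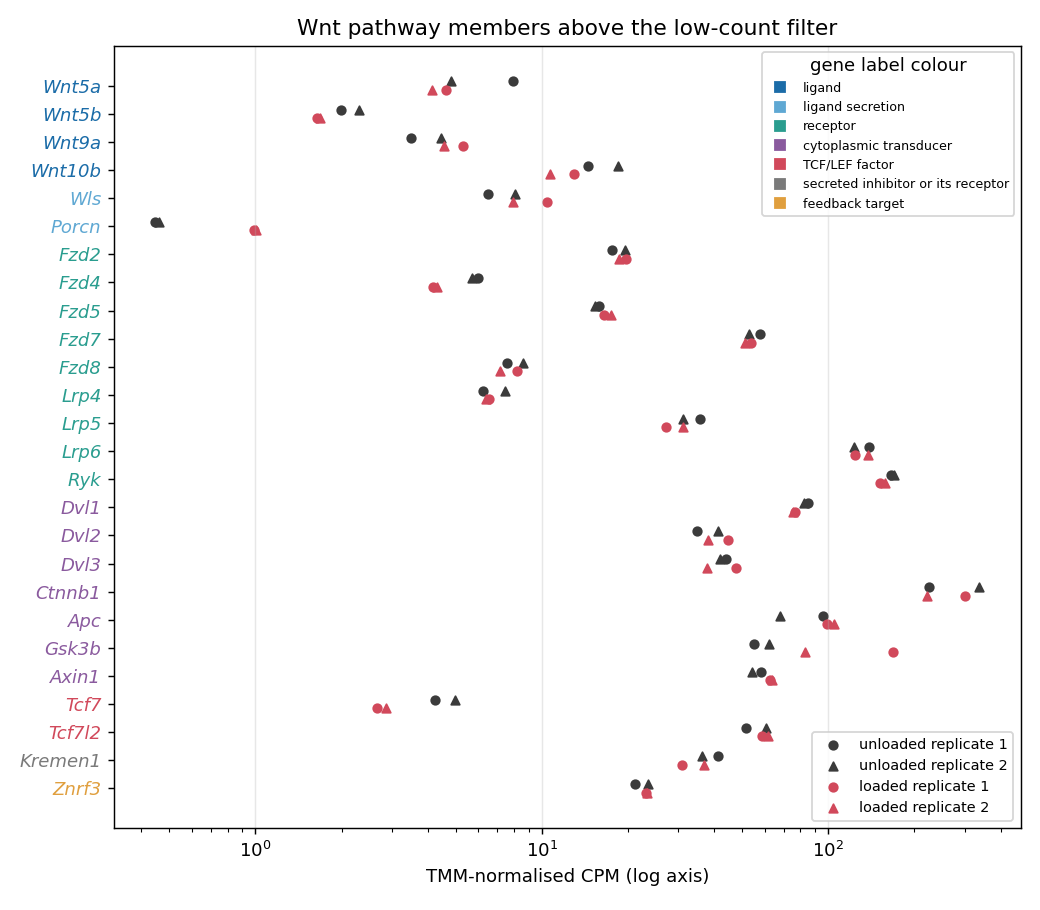
TMM-normalised CPM (log axis) of the 26 tested members in each library, unloaded in dark grey and loaded in red, with circles for replicate 1 and triangles for replicate 2. Values run from 0.447 CPM for *Porcn* to 337 CPM for *Ctnnb1*. For 13 members (50%) the loaded and unloaded points do not overlap, against 46.6% of all tested genes.

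Among the cytoplasmic transducers, *Gsk3b*, the kinase that marks beta-catenin for degradation, showed the largest difference of this group and the smallest p-value of all members. *Gsk3b* (chromosome 16, 38089001 to 38246084) had 1597 and 1887 counts in the unloaded and 5422 and 2477 counts in the loaded libraries. In normalised values this was 54.9 and 62.2 CPM against 168 and 83.0 CPM, so both loaded libraries lay above both unloaded libraries, while loaded replicate 1 stood far above loaded replicate 2. The gap between the loaded replicates was 1.01 on the log2 scale, and 2.59% of all tested genes had a larger one. The log2 fold change was 1.10 (standard error 0.307, edgeR unadjusted p = 0.0114, adjusted p = 0.190). Without loaded replicate 1 it was 0.51 (edgeR adjusted p = 0.240), and without loaded replicate 2 it was 1.52 (edgeR adjusted p = 0.0358), within a range of 0.0297 to 0.343 over all alternatives. Its paralogue *Gsk3a*, which is no member and was chosen after its values were known, had 102 and 108 TPM in unloaded and 118 and 106 TPM in loaded cells. On average *Gsk3b* made up 16.3% of the summed Gsk3 TPM in unloaded and 26.9% in loaded libraries.

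*Ctnnb1* (chromosome 9, 120929216 to 120960507), which encodes beta-catenin, was the most abundant member in CPM and TPM. It had 226 and 337 CPM in the unloaded and 299 and 222 CPM in the loaded libraries. The replicates differed more than the group means of 281 ± 78.7 and 261 ± 54.5 CPM (SD, n = 2 per group). The log2 fold change was -0.11 (95% interval -0.63 to 0.41, edgeR adjusted p = 0.871), and its sign changed when unloaded replicate 2 or loaded replicate 2 was left out. *Ctnnb1* shares 759 exon bases with *Ulk4* on the opposite strand.

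**Figure D4:**
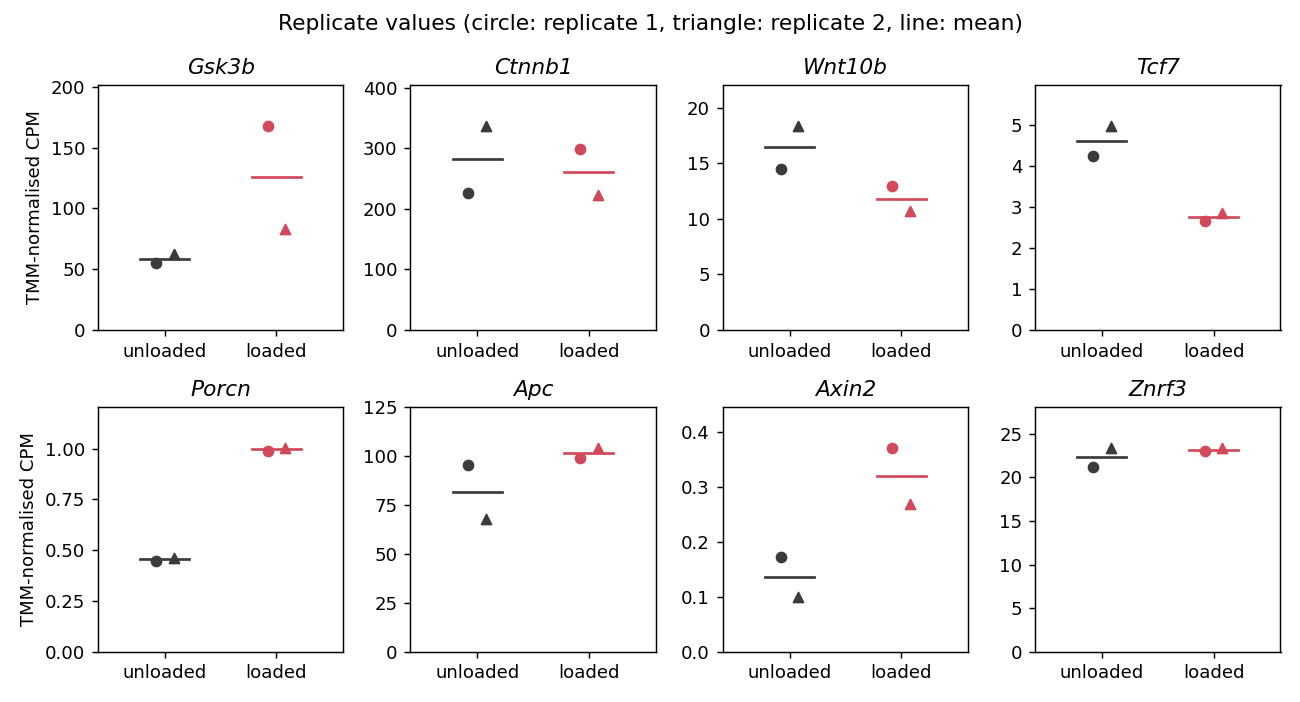
TMM-normalised CPM (linear axes from 0) of 8 members in each library, with circles for replicate 1, triangles for replicate 2 and a line for the mean of each group. *Gsk3b* and *Ctnnb1* differ widely between replicates, *Porcn* has close replicates, and *Axin2* stays under 0.4 CPM.

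The scaffolds of the beta-catenin destruction complex had somewhat higher values in loaded cells, and neither passed the test. *Axin1* had 58.1 and 54.3 CPM in unloaded and 62.7 and 63.8 CPM in loaded cells, without overlap (log2 fold change 0.17, 95% interval -0.05 to 0.40, edgeR adjusted p = 0.466). *Apc* had 95.7 and 68.1 CPM in unloaded and 99.1 and 104 CPM in loaded cells, also without overlap (log2 fold change 0.31, 95% interval -0.08 to 0.71, edgeR adjusted p = 0.442). Unloaded replicate 2 was low for *Apc*, and without it the log2 fold change was 0.09.

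Of the Dishevelled genes, which relay the signal from Frizzled, *Dvl1* made up 51.4% to 57.8% of the family's TPM. *Dvl1* had 84.8 and 82.2 CPM in unloaded and 76.7 and 75.1 CPM in loaded cells, without overlap (log2 fold change -0.14, 95% interval -0.34 to 0.06, edgeR adjusted p = 0.508). *Dvl2* (log2 fold change 0.12, 95% interval -0.20 to 0.44) and *Dvl3* (log2 fold change -0.0075, 95% interval -0.34 to 0.32) overlapped between the groups, at 35.0 to 44.7 CPM and 37.7 to 47.7 CPM over the 4 libraries. The value of *Dvl2* is uncertain because 1151 of its exon bases are shared with *Acadvl* on the opposite strand. The 7 tested transducers had a median log2 fold change of 0.12, with 4 positive and 3 negative values.

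Among the TCF/LEF factors, *Tcf7* showed the larger difference. *Tcf7*, which encodes TCF1 and is itself a known beta-catenin target, lies on chromosome 11 (52252371 to 52283014). It had 4.23 and 4.98 CPM in the unloaded and 2.66 and 2.85 CPM in the loaded libraries. Both loaded values lay below both unloaded values. The gap between replicates was 0.21 on the log2 scale in unloaded and 0.08 in loaded cells, against medians over all tested genes of 0.145 and 0.157. The log2 fold change was -0.74 (standard error 0.243, edgeR unadjusted p = 0.0223, adjusted p = 0.255; DESeq2 adjusted p = 0.488), and omitting single libraries gave values from -0.84 to -0.62. *Tcf7l2* was the most abundant factor, with 51.6 and 60.7 CPM in unloaded and 58.9 and 61.9 CPM in loaded cells (log2 fold change 0.10, edgeR adjusted p = 0.736). The share of *Tcf7* in the summed TPM of the 4 factors was 21.5% in each unloaded library and 13.1% and 13.3% in the loaded libraries, which was not tested. *Lef1*, a target as well as a partner of beta-catenin, had 0 and 5 counts in unloaded and 0 and 4 counts in loaded libraries. *Tcf7l1* had 1 count in loaded replicate 1 and 0 elsewhere.

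Secreted inhibitors were at or near 0 in these cells under both conditions. *Dkk1*, *Dkk3*, *Sfrp1*, *Sfrp2* and *Wif1* had 0 counts in all 4 libraries. *Dkk2* had 5 counts in loaded replicate 1 and 0 in the others. The inhibitor-related gene *Kremen1*, a membrane receptor that removes Lrp6 together with Dkk1, was by contrast expressed at 41.3 and 36.2 CPM in unloaded and 31.0 and 36.8 CPM in loaded cells. The groups overlapped (log2 fold change -0.19, 95% interval -0.51 to 0.12, edgeR adjusted p = 0.556). Of the 10 further secreted or membrane inhibitors outside the members, *Sost* included, 5 had 0 counts and 2 passed the filter, *Apcdd1* and *Tpbg*, neither of which was called.

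The feedback targets were likewise low, with the exception of *Znrf3*. *Axin2* (chromosome 11, 108920349 to 108950783), the most widely used readout of beta-catenin signalling, had 5 and 3 counts in the unloaded and 12 and 8 counts in the loaded libraries, or 0.172 and 0.0989 CPM against 0.372 and 0.268 CPM. The loaded counts were higher in both libraries, but the gene lay below the filter, 1 unloaded value was at the floor of 3 counts, and 209 of its exon bases are shared with the antisense gene *Gm11670*. When no filter on low counts was applied, its adjusted p with edgeR was 0.687. *Nkd1*, an inhibitor of Dishevelled, had 0 counts in all libraries, and *Nkd2* had 5 counts in loaded replicate 1 only. *Rnf43*, a ubiquitin ligase that removes Frizzled from the surface, had 4 counts in each replicate 1 and 0 in each replicate 2. Its homologue *Znrf3* had 21.2 and 23.4 CPM in unloaded and 23.1 and 23.3 CPM in loaded cells, with a log2 fold change of 0.06 (95% interval -0.22 to 0.33, edgeR adjusted p = 0.873). *Znrf3* (5276324 to 5444847) and *Kremen1* (5191552 to 5261558) are neighbours on the minus strand of chromosome 11.

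Set side by side, the medians of the role groups ran from -0.43 to 0.73 on the log2 fold change scale, and these were not tested against each other. The median was -0.43 for 4 tested ligands, 0.73 for 2 secretion genes, -0.08 for 9 receptors, 0.12 for 7 transducers and -0.32 for 2 TCF/LEF factors, and the same over all tested genes was -0.01. The median of the transducers was 0.0015 without loaded replicate 1. Only 1 secreted-inhibition gene and 1 feedback target passed the filter, so that no median exists for these groups.

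Other genes of the pathway were counted from 2 further lists. Of 72 genes (other ligands and receptors, R-spondins and their receptors, inhibitors, transducers, nuclear co-factors and planar polarity genes), 37 were tested, 22 with a positive and 15 with a negative log2 fold change and a median of 0.06. A single gene of these passed the threshold, against 0.0983% of all tested genes, and 4 (10.8%) had an unadjusted p under 0.05, against 14.3% of all tested genes. *Pygo2*, a chromatin-binding co-activator of beta-catenin, rose from 26.2 and 29.5 CPM in unloaded to 107 and 111 CPM in loaded cells. Its log2 fold change was 1.97 (standard error 0.103, edgeR adjusted p = 0.00785). The adjusted p was 0.0202 without loaded replicate 1 and 0.0358 without loaded replicate 2, the highest of the alternatives, and was lowest with DESeq2, at 9.83e-51. No gene of this list was called lower.

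Of 14 common beta-catenin targets outside the members, 13 were tested, 6 with a positive and 7 with a negative log2 fold change and a median of -0.01, and 0 passed with edgeR. At an unadjusted p under 0.05 in edgeR there were 4 (3 higher and 1 lower), which is 30.8% of those tested against 14.3% of all tested genes. Because the list was chosen with earlier results of these data known, this share cannot serve as evidence about beta-catenin targets. *Ccn4*, a matricellular Wnt-inducible protein, passed with DESeq2 (adjusted p = 0.00139) but not with edgeR (log2 fold change 0.40, adjusted p = 0.120). It had 194 and 175 CPM in unloaded and 232 and 255 CPM in loaded cells. The cell cycle targets *Ccnd1* and *Myc*, chosen after their values were seen, had log2 fold changes of -0.01 (95% interval -0.13 to 0.12) and -0.05 (95% interval -0.25 to 0.14).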

How the data were processed

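Gene counts of 2 unloaded and 2 loaded MLO-Y4 cultures were used, with groups and replicate numbers from the sample titles. The authors mapped trimmed, quality-filtered reads to mm10 with HISAT2 (version 2.1.0), assembled transcripts with StringTie (version 1.3.5) and made the deposited counts from its output. These raw counts per gene are converted coverage. Values of 4 and 8 (4960 and 2170 times) were more frequent in the table than their neighbours. The value 12 (1189 times) was more frequent than 11 (707 times), so a count need not be 1 read. Strandedness and read length are not given in the sources used here.

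All 55450 gene identifiers, versions included, were found in GENCODE M21 (GRCm38), which gave positions and exon lengths for TPM. Genes were filtered with filterByExpr (count minimum 10), scaled by TMM and compared by the quasi-likelihood F test of edgeR 4.0.16 (R 4.3.3). P-values were adjusted over all tested genes by Benjamini-Hochberg, and the study's threshold of 0.01 was used. The 95% interval is the log2 fold change plus or minus its standard error times the quantile of the fit's t distribution. Alternatives were RLE and upper-quartile scaling, DESeq2 1.42.0, limma-voom (limma 3.58.1), the exact test of edgeR, other filters on low counts, the replicate number as a block, an adjusted p under 0.05 and leaving out each library. The procedure was also run on simulated counts that gave every gene the same dispersion, and no result here rests on that run. The authors called differentially expressed genes with DESeq2 (version 1.32.0) at that threshold of 0.01, and used edgeR for the mRNA level of *Nfe2l2*.

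Members and lists were chosen with earlier results of these data known. Full values are given for members with an unadjusted p under 0.05, the feedback targets, *Lef1*, *Tcf7*, *Dkk1*, *Ctnnb1* and the member of highest level per length in each role, and other members are described more briefly. From the other lists, genes with an adjusted p under 0.01 in edgeR or DESeq2 (at most 10) and *Sost* are named. *Tle5* was found under its older symbol *Aes*, which RefSeq gives as a synonym. Promoter windows are from RefSeq (GRCm38.p6).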

Additional observations from a re-analysis of the deposited data

How the results depend on the processing

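The count of members called at an adjusted p under 0.01 was 0 in each direction under every alternative run. At an adjusted p under 0.05, which was applied to the main fit only, it was also 0. Of 26 tested members, 18 kept their direction in all 12 alternatives. Direction changed when a library was left out for 8 members, whose values then ranged from -0.022 to 0.13 (*Fzd2*), -0.17 to 0.019 (*Fzd8*), -0.19 to 0.054 (*Lrp4*), -0.085 to 0.091 (*Lrp6*), -0.19 to 0.15 (*Dvl3*), -0.36 to 0.21 (*Ctnnb1*), -0.00032 to 0.22 (*Tcf7l2*) and -0.0075 to 0.13 (*Znrf3*). Some of these near 0 also changed sign elsewhere: *Lrp6* was 0.0078 with RLE scaling, 0.0064 with DESeq2 and 0.0023 with at least 10 counts in every library, and *Dvl3* was 0.0012 with RLE scaling and 0.00023 with DESeq2. The largest shift was that of *Gsk3b*, from 0.51 to 1.52 over the left-out libraries, with an adjusted p of 0.0297 in edgeR's exact test.

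Over all genes, the counts higher and lower were 170 and 193 with DESeq2, 104 and 175 with the exact test, 4 and 25 with at least 10 counts in every library, 55 and 92 at an adjusted p under 0.05, and 0 and 0 both without a filter and with the replicate block. Leaving out a library gave 0 to 19 higher and 0 to 40 lower genes. These fits test more genes, since the filter then asks for a single library, and assume that the lone library varies like the other group. Of both further lists together, the genes called numbered 2 with DESeq2, 0 without a filter and 0 with the replicate block, and 0 to 1 with a library left out. With the block, 1839 genes had an unadjusted p under 0.05 and the adjusted p of *Pygo2* was 0.0156. Same-numbered libraries showed no shared deviation (correlation across genes of -0.0728), and nothing in the labels says that a number marks a shared batch, but 2 pairs are too few to settle whether the libraries were paired. The median log2 fold change of the transducers ranged from 0.0015 to 0.16, that of the ligands from -0.49 to -0.28 and that of the receptors from -0.10 to -0.07 over the left-out libraries. The cause of these shifts was not tested.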

Other observations

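Among R-spondins and their receptors, of which 3 of 7 listed genes passed the filter, *Lgr6* had 11.3 and 8.50 CPM in unloaded and 2.63 and 5.43 CPM in loaded cells. It and the 2 genes named next were picked with their values known. Its log2 fold change was -1.30 (95% interval -2.19 to -0.41, edgeR adjusted p = 0.190, DESeq2 adjusted p = 0.0237), with a range of -1.91 to -0.86 over the left-out libraries. *Lgr4*, the more abundant receptor of this kind, had 19.4 and 21.5 CPM in unloaded and 22.7 CPM in each loaded library (log2 fold change 0.15, edgeR adjusted p = 0.610).

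Of 9 planar polarity genes, 7 were tested, 6 with a positive log2 fold change, against 7889 of all 16269 tested genes. Among those with a positive value, *Celsr1*, *Celsr2* and *Celsr3* had only 3 to 37 counts per library. Of the 7 tested, 0 had an unadjusted p under 0.05 in edgeR, none being called by DESeq2. *Daam1*, a formin that binds Dishevelled and the most abundant of them in CPM, had 99.6 and 99.4 CPM in unloaded and 104 and 115 CPM in loaded cells (log2 fold change 0.14, edgeR adjusted p = 0.502).

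Both *Id2* and *Bmp4*, targets picked with their values known, had values that did not overlap between the groups. The same held for 5 of the 13 tested targets (38.5%) and for 46.6% of all tested genes. *Id2* had 25.6 and 24.5 CPM in unloaded and a mean of 16.1 CPM in loaded cells (log2 fold change -0.63, edgeR adjusted p = 0.0812, DESeq2 adjusted p = 0.0295). *Bmp4* had 73.1 and 76.6 CPM in unloaded and 168 and 90.8 CPM in loaded cells, with the high value in loaded replicate 1, as for *Gsk3b*. Its log2 fold change was 0.79 (edgeR adjusted p = 0.266, DESeq2 adjusted p = 0.409), and 0.28 without loaded replicate 1.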
